A study of Mus musculus with 12 samples.

Results

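The axon guidance ligands and receptors are 68 mouse genes taken by symbol, family by family, from the protein-coding genes of GENCODE release M21, out of 54392 gene rows. They comprise 20 semaphorins, 9 plexins, 2 neuropilins, 3 Slits, 4 Robo receptors, 5 ephrin-A ligands, 3 ephrin-B ligands, 9 EphA receptors, 5 EphB receptors, 4 netrins and 4 Unc5 receptors. Their RNA was measured in NIH-3T3, an immortalised mouse embryonic fibroblast line, by total RNA sequencing of 3 libraries in each of 4 groups. The groups labelled Crls1KO1, Crls1KO2 and Crls1KO3 (KO1, KO2 and KO3 below) are lines that carry lost alleles of Crls1, the gene of cardiolipin synthase, which makes a phospholipid of the inner mitochondrial membrane. Cells had received a Cas9 plasmid with a guide RNA against Crls1, and each KO line grew from a single sorted GFP-positive cell, so each is 1 clone. The group labelled Crls1WT (WT below) has intact Crls1, and every group was grown in the same medium, which contained glucose, glutamine, serum, antibiotics, pyruvate and uridine. The labels leave unstated whether WT cells were transfected and sorted too and whether the libraries of a group came from separate cultures, so all p-values cover only the spread between these libraries, which may be technical.

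Guidance cues were first described as proteins that steer the growth cones of axons, and most of them also act on migrating and adhering cells outside the nervous system, fibroblasts among them. Semaphorins signal through plexins, for which neuropilins serve as co-receptors of the secreted class, Slits signal through Robo receptors, ephrins through Eph receptor tyrosine kinases on neighbouring cells, and netrins through DCC, neogenin and the Unc5 receptors. Most of these receptors act on small GTPases and so on the actin cytoskeleton and on adhesion. Ephrins and Eph receptors on fibroblasts are known for sorting cells at boundaries by contact.

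Each library held between 32929242 and 42211807 whole reads, recovered from the normalized counts that the authors deposited. Crls1 itself averaged 210 ± 2.67 normalized counts in KO1, 349 ± 21.1 in KO2 and 381 ± 23.9 in KO3, against 815 ± 68.4 in WT (SD, n = 3 each). WT replicate 1 stood apart, with chi-square values per degree of freedom of 57.6 and 60.5 against the other WT libraries and 18.6 between those. For guidance genes compared with WT, values without it are therefore given where they change a call. For single genes of the other lists and single differences between clones they are not given. Of 10 fibroblast markers, 8 passed the filter described below and their sum lay between 776473 and 902540 normalized counts in every library, but Dcn averaged at most 0.66 in any group and Lum was at 0. Marker sums of other cell types moved with the groups, and their part in the results below was not tested. The filter was passed by 5 of 8 endothelial, 4 of 10 neuron, 5 of 7 Schwann cell and 2 of 5 myoblast markers. It was also passed by 2 of 5 epithelial, 4 of 5 leukocyte, and 1 of 5 oligodendrocyte and astrocyte markers. A sum can thus rest on few genes. For 8 endothelial markers the sum ran from 287 to 339 in KO1, from 626 to 729 in KO2 and from 124 to 189 in KO3, against 84.7 to 117 in WT, with Kdr at 1.06 or less in every group mean. For 10 neuron markers it ran from 862 to 877 in KO1, from 181 to 205 in KO2 and from 143 to 206 in KO3, against 195 to 260 in WT, with Snap25 and Elavl4 at 0 throughout. For 7 Schwann cell markers it ran from 700 to 752 in KO1, from 613 to 675 in KO2 and from 606 to 727 in KO3, against 184 to 206 in WT, with Ngfr at 0 throughout. For 5 myoblast markers it ran from 1504 to 1619 in KO1, from 198 to 246 in KO2 and from 148 to 158 in KO3, against 67.0 to 105 in WT, with Myod1 at 0 throughout. For 5 smooth muscle markers, of which 4 passed the filter, it ran from 7027 to 7515 in KO1, from 1071 to 1264 in KO2 and from 6365 to 6769 in KO3, against 8135 to 9563 in WT. For 5 epithelial markers it ran from 344 to 371 in KO1, from 183 to 207 in KO2 and from 305 to 327 in KO3, against 96.4 to 107 in WT, with Cldn4 at 0 throughout. For 5 leukocyte markers it ran from 162 to 256 in KO1, from 180 to 229 in KO2 and from 110 to 127 in KO3, against 502 to 666 in WT. For 5 oligodendrocyte and astrocyte markers it was at most 42.9 in any library, with Olig1, Olig2 and Aqp4 at 0 throughout. In such bulk samples, fewer cells that express a gene and less RNA per cell cannot be told apart.

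In every clone some guidance genes were called higher and others lower than WT. Of the 68 genes, 45 reached at least 10 normalized counts in at least 3 of the 12 libraries and were tested, among 15073 genes in all. A gene was called when limma gave an adjusted p under 0.05, with fold changes as differences of log2(normalized count + 1). In KO1 23 of the 45 were higher and 9 lower than in WT, against 26.9% called higher and 25.4% called lower among all genes tested (52.3% in either direction). In KO2 21 were higher and 10 lower, against 29.9% and 30.5% of all genes (60.4% in either direction). In KO3 11 were higher and 15 lower, against 26.8% and 27.3% of all genes (54.1% in either direction). The share of the 45 called in either direction was thus 71.1% in KO1 and 68.9% in KO2, above that of all genes, and 57.8% in KO3, near it. The median difference of the 45 genes from WT was 0.44 in KO1, 0.40 in KO2 and 0.00 in KO3 on the log2 scale, while over all genes tested it was 0.02 in KO1 and 0.00 in KO2 and KO3. The filter enters these counts, since Epha5, Slit2 and Ntn5 passed it through KO1 libraries alone and had to be higher there. Sema4a passed with no WT library at 10 normalized counts, Sema4g with none of KO1 and Sema3g with none of KO2. Plxnc1 passed with none of KO3, and Ntn1 with none of KO1 or KO3. The filter can favour a low value in such a group. The 3 comparisons share the WT libraries, so a deviation of a WT library moves all of them. In all 3 clones, 9 of the 45 (20%) were called higher, beside 12.9% of all genes tested. The 5 called lower in all 3 clones are 11.1% of the 45, below the 13.3% of all genes. Efna3, Efna4 and Ntn3 were called in no clone, which is 6.67% of the 45 beside 19.3% of all genes.

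**Figure D1:**
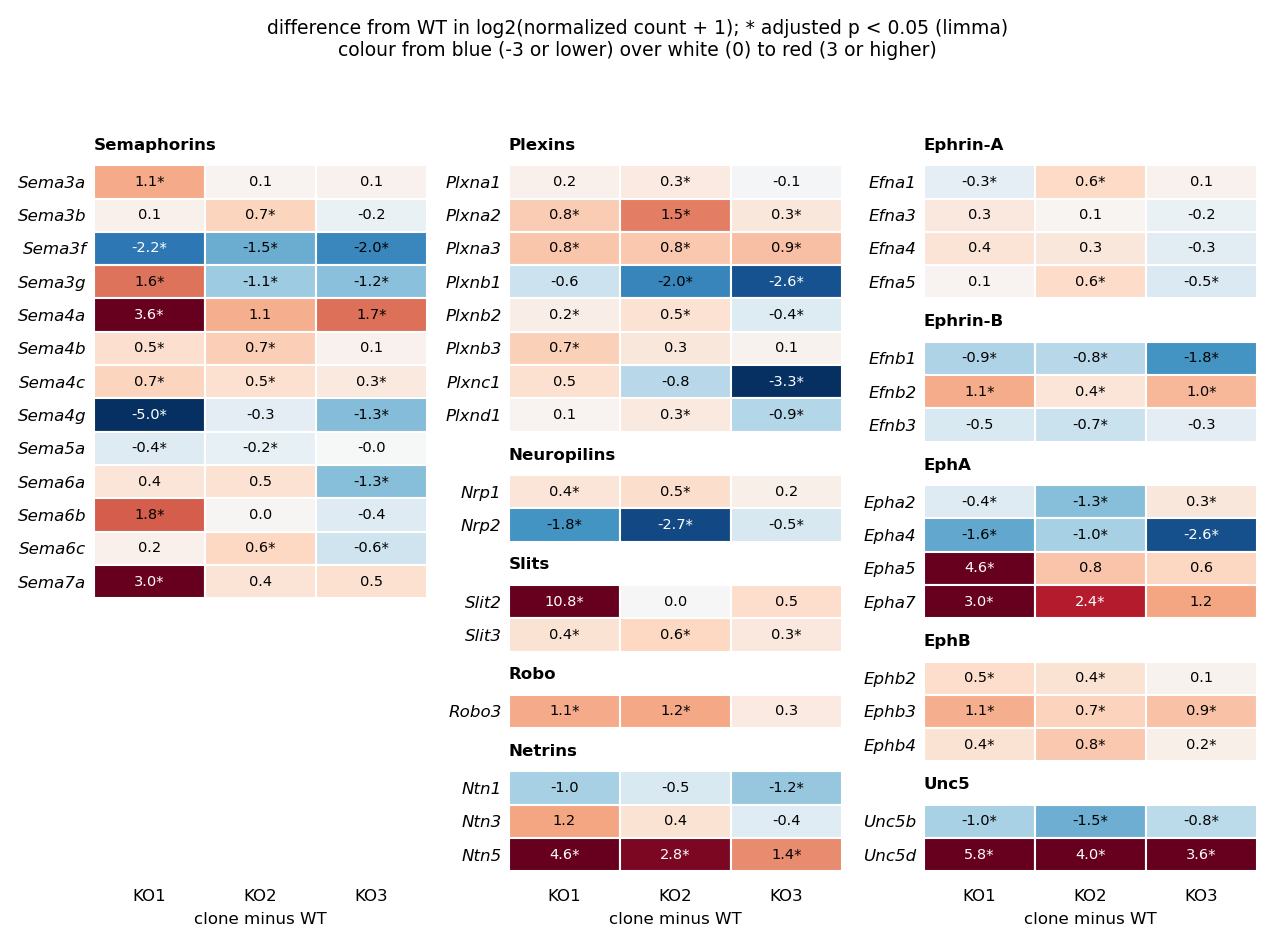
Differences of the 45 tested guidance genes from WT by family, for KO1, KO2 and KO3 (columns), as differences of log2(normalized count + 1), with an asterisk at an adjusted p under 0.05. Sema3f, Nrp2, Epha4, Efnb1 and Unc5b carry asterisks on blue in the columns of all clones, and Slit2 is at 10.8 in KO1 and at 0.0 in KO2.

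The promoters of 6 of these genes are printed here because the results turn on them: Slit2 and Slit3, members of the same family of which Slit2 was read only in KO1 beyond a few reads, and Nrp2, Epha4, Unc5b and Efnb1, each lower than WT in every clone. Each runs from 250 bases before to 50 bases after the annotated start, in the direction of transcription, from the RefSeq promoter table of GRCm38.p6. Sema3f, also lower than WT in every clone, and Unc5d, higher in every clone, had no promoter there and are not printed. The capitals mark GGGCGG and its complement CCGCCC, the core of a GC box that Sp family factors bind, searched on both strands, overlaps included. The windows are chr5:47982905-47983204 on the plus strand (Slit2), chr11:35121206-35121505 on the plus strand (Slit3), chr1:62703067-62703366 on the plus strand (Nrp2), chr1:77515039-77515338 on the minus strand (Epha4), chr10:60831532-60831831 on the minus strand (Unc5b) and chrX:99135811-99136110 on the plus strand (Efnb1).
Slit2: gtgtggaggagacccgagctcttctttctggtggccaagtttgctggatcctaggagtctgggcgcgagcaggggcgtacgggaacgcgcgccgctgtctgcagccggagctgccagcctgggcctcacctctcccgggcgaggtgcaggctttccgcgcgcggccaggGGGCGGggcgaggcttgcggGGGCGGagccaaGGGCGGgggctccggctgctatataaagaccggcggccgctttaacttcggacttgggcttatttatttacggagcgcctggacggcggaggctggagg
Slit3: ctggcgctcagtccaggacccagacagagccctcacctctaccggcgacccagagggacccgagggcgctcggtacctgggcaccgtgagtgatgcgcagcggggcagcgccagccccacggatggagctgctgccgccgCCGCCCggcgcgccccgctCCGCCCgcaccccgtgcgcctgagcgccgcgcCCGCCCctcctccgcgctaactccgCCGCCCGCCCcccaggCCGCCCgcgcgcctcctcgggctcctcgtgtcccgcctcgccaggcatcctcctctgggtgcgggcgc
Nrp2: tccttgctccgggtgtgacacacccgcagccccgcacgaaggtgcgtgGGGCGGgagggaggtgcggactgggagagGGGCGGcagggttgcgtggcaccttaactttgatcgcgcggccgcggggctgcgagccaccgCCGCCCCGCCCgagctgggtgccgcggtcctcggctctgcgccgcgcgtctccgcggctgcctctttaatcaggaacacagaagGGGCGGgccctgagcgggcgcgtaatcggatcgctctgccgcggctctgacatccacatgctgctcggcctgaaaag
Epha4: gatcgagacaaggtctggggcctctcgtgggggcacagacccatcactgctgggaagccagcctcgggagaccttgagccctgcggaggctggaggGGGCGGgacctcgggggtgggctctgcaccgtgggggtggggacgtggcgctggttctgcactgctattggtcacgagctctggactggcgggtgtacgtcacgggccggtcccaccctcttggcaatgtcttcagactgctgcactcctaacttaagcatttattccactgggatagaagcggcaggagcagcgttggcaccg
Unc5b: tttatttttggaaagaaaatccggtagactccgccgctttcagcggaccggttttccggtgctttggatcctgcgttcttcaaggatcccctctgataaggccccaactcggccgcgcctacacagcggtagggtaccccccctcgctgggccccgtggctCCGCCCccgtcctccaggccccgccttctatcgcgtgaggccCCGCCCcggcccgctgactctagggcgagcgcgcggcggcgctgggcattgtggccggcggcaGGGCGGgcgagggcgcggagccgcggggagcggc
Efnb1: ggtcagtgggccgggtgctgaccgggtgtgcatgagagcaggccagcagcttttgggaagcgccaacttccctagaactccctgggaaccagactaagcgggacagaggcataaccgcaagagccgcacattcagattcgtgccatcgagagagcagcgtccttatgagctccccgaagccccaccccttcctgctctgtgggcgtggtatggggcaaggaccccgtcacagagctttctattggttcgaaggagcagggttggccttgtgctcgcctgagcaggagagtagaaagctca
The motif occurs 3 times in the Slit2 window, 6 times in that of Slit3, 5 times in that of Nrp2, 3 times in that of Unc5b, once in that of Epha4 and not in that of Efnb1. CG dinucleotides number 30 in the window of Slit2, 41 in Slit3, 37 in Nrp2, 17 in Epha4, 36 in Unc5b and 14 in Efnb1. The table held 75 promoters for 59 of the 68 genes, with a median of 19 CG dinucleotides and a GC content of 64.3%, against 7 and 52.7% over all 32851 promoters. GGGCGG on either strand stands in 53 of the 75, or 70.7%, against 35.7% of all promoters of the same length. TATAAA, the usual letters of a TATA box, stands on either strand in 2 of the 75 (Slit2 and Efnb2), or 2.67%, against 13.6% of all. Such a match describes the letters in the window and says nothing of binding.

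Among the secreted class 3 semaphorins, which act through neuropilins and plexins, Sema3f was lower than WT in each clone, and Sema3a was higher in KO1. Sema3f had 1458, 1470 and 1471 normalized counts in KO1, 2189, 2479 and 2287 in KO2, 1709, 1514 and 1846 in KO3, and 6777, 6473 and 6375 in WT. Every clone library was below every WT library. Sema3f (ENSMUSG00000034684.12, minus strand of chromosome 9 at 107681500 to 107710475, GRCm38) binds Nrp2 by preference. Its level fell by 2.16 on the log2 scale (SE 0.07, adjusted p = 1.83e-10) in KO1, by 1.50 (SE 0.07, adjusted p = 4.07e-09) in KO2 and by 1.96 (SE 0.07, adjusted p = 3.59e-10) in KO3. Sema3a, the classical growth cone collapsing factor, which acts through Nrp1, had 6849, 7329 and 6747 normalized counts in KO1, 2889, 3392 and 3772 in KO2, 3346, 3607 and 3466 in KO3, and 3890, 2824 and 2907 in WT. KO1 stood above all other libraries, while KO2 and KO3 overlapped with WT. Sema3a rose by 1.14 (SE 0.12, adjusted p = 5.26e-06) in KO1, and its difference from WT was 0.07 in KO2 (adjusted p = 0.626) and 0.13 in KO3 (adjusted p = 0.371). Without WT replicate 1, the highest WT library, Sema3a was called in KO2 at 0.22 (adjusted p = 0.0488) and in KO3 at 0.28 (adjusted p = 0.0181).

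The make-up of the class 3 semaphorins differed between groups, with levels set per kilobase of merged exons. Sema3f made up 33.1 ± 0.76% of the class 3 level in KO1, 58.4 ± 1.30% in KO2 and 52.5 ± 2.65% in KO3, against 81.8 ± 2.38% in WT (SD, n = 3 each). Sema3a made up 59.0 ± 1.55% in KO1, 31.6 ± 3.15% in KO2 and 40.6 ± 3.16% in KO3, against 14.9 ± 1.81% in WT. These shares, plotted by library, leave KO1 as the group in which Sema3a exceeded Sema3f per kilobase. They rest on merged exon lengths of 13868 bases for Sema3a and 5197 for Sema3f. In normalized counts not set per length, Sema3a exceeded Sema3f in every clone library, and Sema3f exceeded Sema3a in every WT library. Sema3g, a weakly expressed relative, averaged 54.8 ± 11.1 normalized counts in KO1, 7.68 ± 2.64 in KO2 and 7.04 ± 3.81 in KO3, against 16.9 ± 1.73 in WT. It rose by 1.63 (adjusted p = 0.0021) in KO1 and fell by 1.25 (adjusted p = 0.0102) in KO3. Its difference of -1.09 in KO2 was called (adjusted p = 0.0186) but not without KO2 replicate 1 (-0.81, adjusted p = 0.0812). Sema3b averaged 249 ± 44.8 in KO1, 356 ± 62.8 in KO2 and 194 ± 24.8 in KO3, against 227 ± 60.4 in WT. Its difference of 0.66 in KO2 (adjusted p = 0.013) was lost without KO2 replicate 1 or 2 or WT replicate 3 (0.49 to 0.58, adjusted p from 0.0513 to 0.0578).

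**Figure D2:**
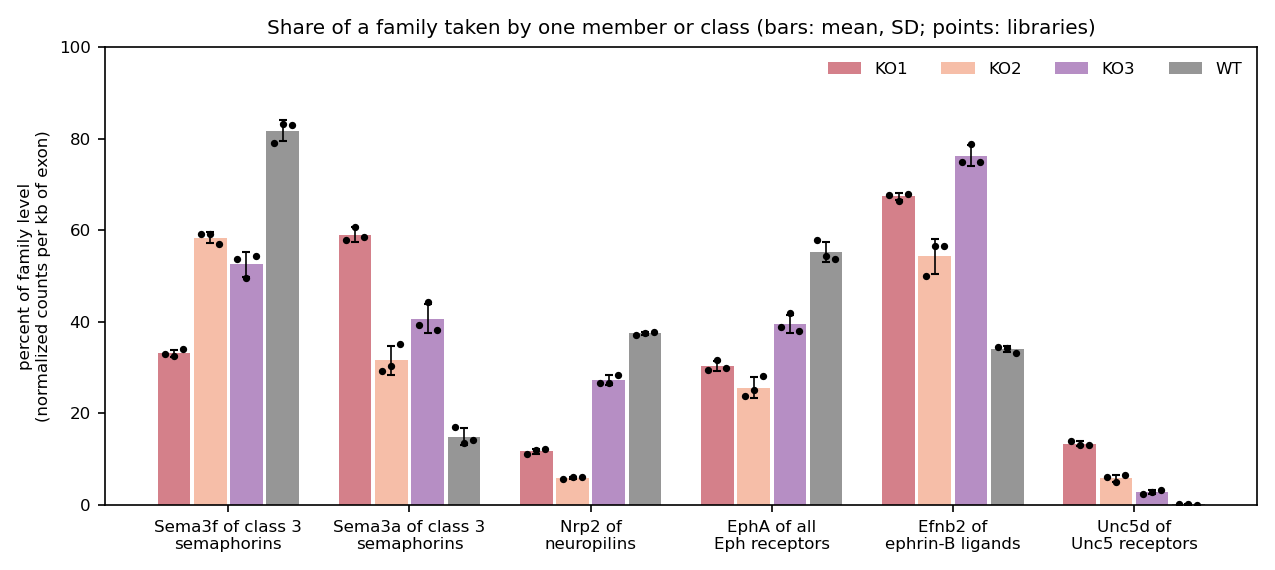
Shares of 1 gene or class in the summed level of its family, in percent of normalized counts per kilobase of exon, for KO1, KO2, KO3 and WT (bars, mean; error bars, SD; points, 3 libraries each). Sema3f is at 33.1% in KO1 and 81.8% in WT, Nrp2 is at 5.97% in KO2 and 37.5% in WT, and Efnb2 is above 50% in each clone mean and at 34.0% in WT.

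Among the membrane-bound semaphorins of classes 4 to 7, the largest called differences were those of Sema4g, Sema4a and Sema7a in KO1. Sema7a, a GPI-anchored semaphorin that binds Plxnc1 and integrins, had 178, 202 and 159 normalized counts in KO1, 28.9, 33.5 and 23.7 in KO2, 27.0, 34.2 and 28.8 in KO3, and 24.7, 16.6 and 23.5 in WT. KO1 lay apart from the 3 other groups, KO2 overlapped with WT, and the lowest KO3 library lay above the highest WT library. Sema7a rose by 3.01 (SE 0.21, adjusted p = 1.56e-07) in KO1, and its difference was 0.40 in KO2 (adjusted p = 0.116) and 0.47 in KO3 (adjusted p = 0.0771). Sema4a had 105, 59.1 and 32.5 normalized counts in KO1, 8.40, 14.4 and 6.15 in KO2, 7.26, 24.6 and 14.9 in KO3, and 4.70, 3.11 and 3.61 in WT. All clone libraries were above all WT libraries, and no WT library reached the filter's 10 normalized counts. Sema4a rose by 3.65 (SE 0.49, adjusted p = 5.11e-05) in KO1, its difference in KO2 was 1.09 (adjusted p = 0.0726), and its call in KO3 (1.65, adjusted p = 0.0124) was lost without KO3 replicate 2 (1.27, adjusted p = 0.0593).

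Sema4g went the other way in KO1. It had 1.07, 0 and 2.95 normalized counts in KO1, 67.2, 54.6 and 35.2 in KO2, 27.0, 23.7 and 24.5 in KO3, and 58.8, 114 and 37.0 in WT. The KO1 libraries were near 0 and apart from all others, and those of KO3 were below WT, while KO2 overlapped with WT. Sema4g fell by 4.99 (SE 0.49, adjusted p = 3.74e-06) in KO1, and its difference in KO2 was -0.31 (adjusted p = 0.61). The call in KO3 (-1.30, adjusted p = 0.0414) was lost without WT replicate 2 (-0.87, adjusted p = 0.172) and also without WT replicate 1, KO1 replicate 1, KO2 replicate 2 or any KO3 library (-1.35 to -1.26, adjusted p from 0.0532 to 0.0924).

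Of the other semaphorins, Sema4b and Sema4c, the last a ligand of Plxnb2, were higher in KO1 (0.50 and 0.68) and KO2 (0.74 and 0.49), and Sema4c also in KO3 (0.29, adjusted p = 0.00472). Sema4b was at 0.12 in KO3 (adjusted p = 0.177), a difference that was called without KO3 replicate 2 (0.19, adjusted p = 0.0291). Sema5a fell by 0.38 in KO1 and by 0.25 in KO2, and its difference was 0.00 in KO3 (adjusted p = 0.964). Sema6b, a class 6 semaphorin that acts on plexin-A receptors, rose by 1.82 (adjusted p = 0.00622) in KO1. Sema6a, of the same class, fell by 1.27 (adjusted p = 0.00052) in KO3. It was uncalled in KO1 at 0.38 and in KO2 at 0.47, and both were called without KO3 replicate 1, whose value enters the shared variance (adjusted p = 0.0297 and 0.00896). In all, 13 of the 20 semaphorins were tested, with 7 higher and 3 lower in KO1, 4 higher and 3 lower in KO2, and 2 higher and 5 lower in KO3. That is a called share of 76.9% in KO1 and of 53.8% in KO2 and KO3, beside 52.3%, 60.4% and 54.1% of all genes in KO1, KO2 and KO3. Their median difference was 0.50 in KO1, 0.40 in KO2 and -0.20 in KO3.

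Of the neuropilins, co-receptors of class 3 semaphorins and of VEGF, Nrp2 was lower in each clone, while Nrp1 was higher in KO1 and KO2. Nrp2 (ENSMUSG00000025969.15, plus strand of chromosome 1 at 62703285 to 62818695) had 1958, 2076 and 2041 normalized counts in KO1, 998, 1095 and 1152 in KO2, 4914, 5099 and 4849 in KO3, and 7745, 6590 and 6747 in WT. The 4 groups did not overlap, and KO2 was the lowest. Nrp2 fell by 1.79 on the log2 scale (SE 0.07, adjusted p = 7.2e-10) in KO1, by 2.70 (SE 0.07, adjusted p = 2.85e-11) in KO2 and by 0.50 (SE 0.07, adjusted p = 5.79e-05) in KO3. Nrp1 had 12905, 12684 and 12134 normalized counts in KO1, 13537, 14047 and 14588 in KO2, 11149, 11643 and 10076 in KO3, and 10863, 9056 and 9200 in WT. KO1 and KO2 were above every WT library, and KO3 overlapped with WT. Nrp1 rose by 0.38 (SE 0.07, adjusted p = 0.00101) in KO1 and by 0.54 (SE 0.07, adjusted p = 4.7e-05) in KO2, and its difference in KO3 was 0.18 (adjusted p = 0.0618). That last difference was called without WT replicate 1 (0.26, adjusted p = 0.00263) and without KO3 replicate 3 (0.24, adjusted p = 0.025). Per kilobase, Nrp2 made up 11.8 ± 0.55% of the neuropilin level in KO1, 5.97 ± 0.20% in KO2 and 27.2 ± 1.05% in KO3, against 37.5 ± 0.34% in WT (SD, n = 3 each).

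**Figure D3:**
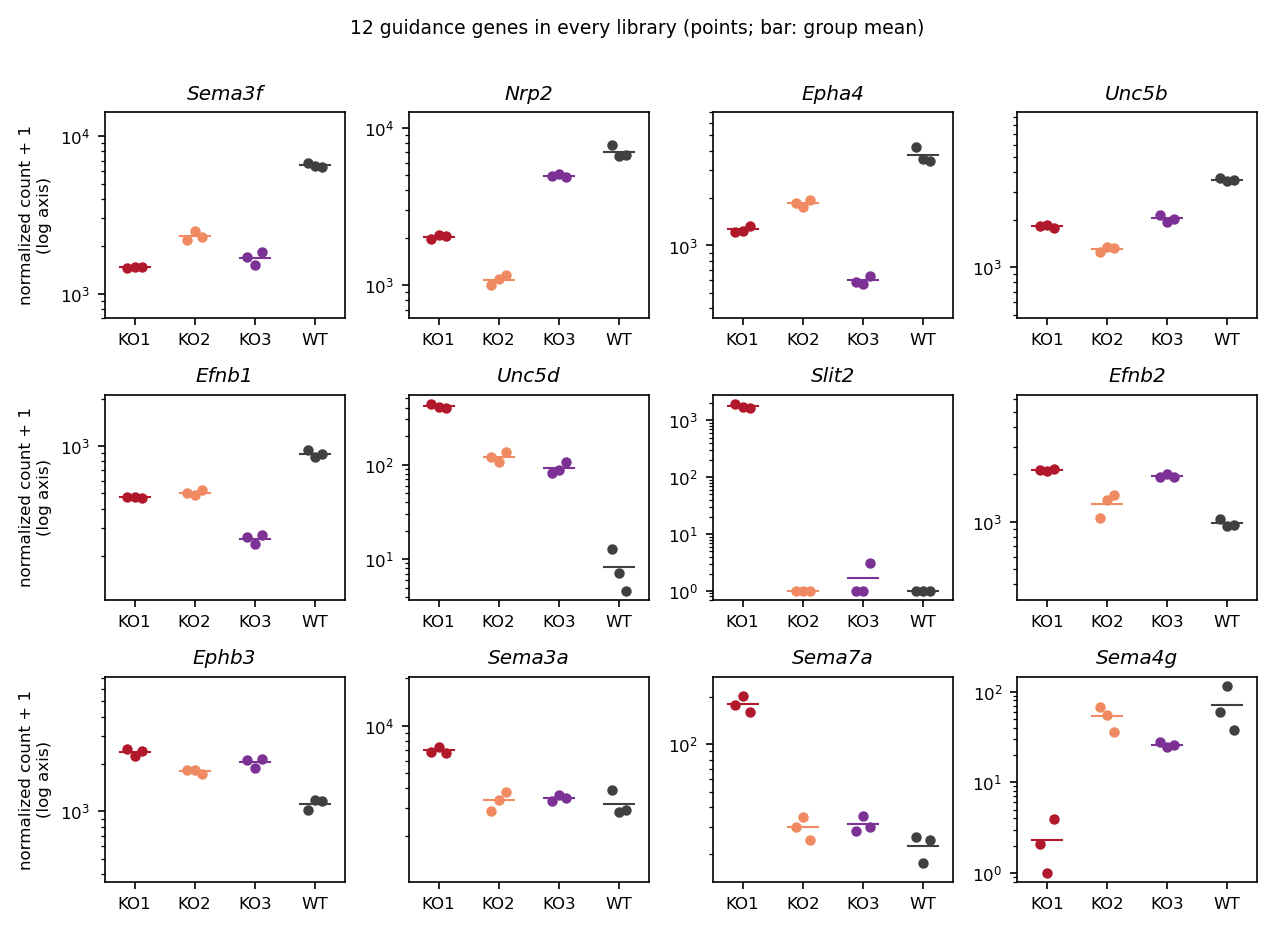
Normalized counts plus 1 (log axis) of 12 guidance genes in each of the 12 libraries, with KO1, KO2, KO3 and WT side by side (points, libraries; bars, group means). The WT points of Sema3f, Nrp2, Epha4, Unc5b and Efnb1 lie above all clone points, those of Unc5d lie below them, and Slit2 rises above a few counts in KO1 alone.

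Among the plexins, the receptors of semaphorins, Plxna3 was higher in each clone, while Plxnb1 was lower in KO2 and KO3. Plxna3, a receptor for class 3 semaphorins with neuropilins, had 1636, 1886 and 2312 normalized counts in KO1, 1735, 1903 and 2008 in KO2, 2100, 1741 and 2258 in KO3, and 1017, 1075 and 1143 in WT. All clone libraries were above all WT libraries, and the clones overlapped with each other. It rose by 0.84 (SE 0.12, adjusted p = 1.04e-04) in KO1, by 0.80 (SE 0.12, adjusted p = 1.07e-04) in KO2 and by 0.91 (SE 0.12, adjusted p = 4.75e-05) in KO3. Plxnb1, the receptor of Sema4d, had 95.3, 72.8 and 136 normalized counts in KO1, 40.1, 41.2 and 34.3 in KO2, 40.4, 15.8 and 22.4 in KO3, and 111, 179 and 182 in WT. KO2 and KO3 lay below WT, and KO1 overlapped with it. Plxnb1 fell by 1.97 (SE 0.33, adjusted p = 2.16e-04) in KO2 and by 2.61 (SE 0.33, adjusted p = 2.6e-05) in KO3. Its difference in KO1 was -0.64 (adjusted p = 0.121), or -0.88 without WT replicate 1 (adjusted p = 0.0481).

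Plxna2 had 1689, 1825 and 1686 normalized counts in KO1, 2683, 3124 and 3066 in KO2, 1341, 1331 and 1201 in KO3, and 1050, 974 and 1041 in WT, with no overlap between any of the groups. It rose by 0.76 (adjusted p = 2.44e-06) in KO1, by 1.53 (adjusted p = 3.71e-09) in KO2 and by 0.34 (adjusted p = 0.00162) in KO3. The genes around Plxna2 on chromosome 1 also differed, with a median over the nearest 20 tested genes on each side of 0.63 in KO1, 0.13 in KO2 and 0.46 in KO3. With that median subtracted, Plxna2 was at 0.13 in KO1 (adjusted p = 0.423) and at -0.13 in KO3 (adjusted p = 0.425), and KO2 kept its call. Plxnb2, the plexin with the highest level per kilobase over all libraries, had 12146, 11903 and 12124 normalized counts in KO1, 15118, 14254 and 13919 in KO2, 7951, 7451 and 8335 in KO3, and 10494, 10566 and 10526 in WT. The groups did not overlap, with KO1 and KO2 above WT and KO3 below. It rose by 0.20 (adjusted p = 0.00579) in KO1 and by 0.45 (adjusted p = 6.8e-06) in KO2 and fell by 0.41 (adjusted p = 1.85e-05) in KO3. The call in KO1 was lost when the median of neighbouring genes was subtracted (0.08, adjusted p = 0.25).

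In KO3 other plexins were lower too. Plxnd1, the receptor of Sema3e in blood vessels, averaged 3750 ± 390 normalized counts in KO1, 4306 ± 548 in KO2 and 1906 ± 105 in KO3, against 3523 ± 62.8 in WT. It fell by 0.89 (adjusted p = 4.98e-06) in KO3, and its difference of 0.28 in KO2 (adjusted p = 0.0191) was lost without KO2 replicate 1 (0.20, adjusted p = 0.0897) or replicate 2 (0.26, adjusted p = 0.0635). Plxnc1, the plexin that binds Sema7a, had 34.2, 67.5 and 24.6 normalized counts in KO1, 32.7, 31.6 and 2.64 in KO2, 2.07, 0.877 and 3.20 in KO3, and 36.5, 5.18 and 96.6 in WT. KO3 was below every WT library, and WT itself spread widely. The call in KO3 (-3.29, adjusted p = 0.0134) was lost without WT replicate 3 (-2.39, adjusted p = 0.0597). Plxnb3 rose by 0.70 (adjusted p = 0.0116) in KO1, a call lost under quantile normalization (0.32, adjusted p = 0.204). Plxna1, the partner of neuropilins at the second highest plexin level per kilobase, rose by 0.28 (adjusted p = 0.00362) in KO2 but not once the neighbours' median was subtracted (0.21, adjusted p = 0.0622). Of 8 tested plexins, 4 were higher and 0 lower in KO1, 5 higher and 1 lower in KO2, and 2 higher and 4 lower in KO3. The called share of plexins was 50% in KO1, near the 52.3% of all genes, and 75% in KO2 and KO3, beside 60.4% and 54.1% of all genes. Summed per kilobase, plexin level was 3571 ± 155 in KO1, 4104 ± 141 in KO2 and 2594 ± 50.9 in KO3, against 3077 ± 21.2 in WT (SD, n = 3 each).

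Slit2 RNA was found in KO1 libraries and, apart from a single KO3 library, in no other. Slit2 (ENSMUSG00000031558.15, plus strand of chromosome 5 at 47983138 to 48307733) encodes a secreted repellent that signals through Robo receptors. It had 1948, 1694 and 1651 normalized counts in KO1, 0 in every KO2 library, 0, 0 and 2.13 in KO3, and 0 in every WT library. KO1 thus lay above all other libraries. Against a floor of 3 reads over the WT group, its level in KO1 was 1716-fold higher, and the gene passed the filter through KO1 alone. The nearest 20 tested genes on each side had a median difference of -0.01 in KO1. Slit3, the Slit that all groups expressed, had 6327, 5806 and 6046 normalized counts in KO1, 6563, 7263 and 6889 in KO2, 5544, 5291 and 5873 in KO3, and 4626, 4340 and 4429 in WT. All clone libraries were above all WT libraries. Slit3 rose by 0.44 (SE 0.06, adjusted p = 3.66e-05) in KO1, by 0.63 (SE 0.06, adjusted p = 1.22e-06) in KO2 and by 0.32 (SE 0.06, adjusted p = 4.42e-04) in KO3. In KO1, Slit2 made up 6.48 ± 0.36% of the Slit level per kilobase and Slit3 93.4 ± 0.37%. These shares rest on merged exon lengths of 25433 bases for Slit2 and 6067 for Slit3, and of normalized counts not set per length Slit2 made up 22.5 ± 1.05% in KO1. Slit1 had 14 reads in KO1, 4 in KO2, 47 in KO3 and 3 in WT and was not tested. Its ratio to WT in KO3 was 15.1 (95% exact counting interval 4.84 to 75.6).

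Robo receptors had few reads in any group. Robo1 had 4 reads in KO1, 2 in KO2, 1 in KO3 and 0 in WT over the libraries of each group. Robo2 had 17 reads in KO1, 1 in KO2, 4 in KO3 and 0 in WT, which puts KO1 5.72-fold above a floor of 3 WT reads. Robo4 had 12 reads in KO1, 1 in KO2, 2 in KO3 and 1 in WT. Robo3, a divergent Robo known from commissural axons, was the only one tested and had 32.1, 35.9 and 38.4 normalized counts in KO1, 30.8, 33.5 and 44.8 in KO2, 14.5, 21.9 and 21.3 in KO3, and 31.8, 15.5 and 7.23 in WT. KO1 lay above WT by a small margin, and KO2 and KO3 overlapped with WT. Its calls at 1.14 in KO1 (adjusted p = 0.0311) and 1.17 in KO2 (adjusted p = 0.0246) rested on single libraries. Without WT replicate 3 they were 0.64 (adjusted p = 0.12) and 0.67 (adjusted p = 0.098). The call in KO1 was also lost without WT replicate 2 or any KO1 library (adjusted p from 0.056 to 0.0827), and that in KO2 without WT replicate 2 or KO2 replicate 3 (adjusted p = 0.0515 and 0.0806).

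The ephrin-B ligands, transmembrane proteins that can signal in both directions, moved apart: Efnb1 was lower and Efnb2 higher in each clone. Efnb1 (ENSMUSG00000031217.8, plus strand of chromosome X at 99136130 to 99148991) had 474, 472 and 468 normalized counts in KO1, 504, 484 and 527 in KO2, 261, 236 and 270 in KO3, and 935, 852 and 894 in WT. Each clone lay below WT, and KO3 was the lowest. Efnb1 fell by 0.92 (SE 0.08, adjusted p = 6.9e-07) in KO1, by 0.82 (SE 0.08, adjusted p = 1.4e-06) in KO2 and by 1.80 (SE 0.08, adjusted p = 1.16e-09) in KO3. Efnb2, the ligand of Ephb4 known from arterial endothelium, had 2123, 2093 and 2157 normalized counts in KO1, 1063, 1367 and 1477 in KO2, 1926, 2016 and 1940 in KO3, and 1040, 946 and 955 in WT. All clone libraries were above all WT libraries, by a small margin in KO2. Efnb2 rose by 1.12 (SE 0.10, adjusted p = 1.24e-06) in KO1, by 0.40 (SE 0.10, adjusted p = 0.00364) in KO2 and by 1.00 (SE 0.10, adjusted p = 2.75e-06) in KO3. Per kilobase, Efnb2 made up 67.4 ± 0.77% of the ephrin-B level in KO1, 54.4 ± 3.82% in KO2 and 76.2 ± 2.29% in KO3, against 34.0 ± 0.63% in WT (SD, n = 3 each). These shares rest on merged exon lengths of 6855 bases for Efnb2 and 3452 for Efnb1. In normalized counts not set per length, Efnb2 was above Efnb1 in every WT library too.

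Efnb3 had 33.2, 54.9 and 41.3 normalized counts in KO1, 29.9, 39.3 and 42.2 in KO2, 58.1, 33.3 and 54.3 in KO3, and 56.4, 56.9 and 64.1 in WT. KO1 and KO2 were below WT and KO3 overlapped with it. Its call in KO2 (-0.67, adjusted p = 0.0349) was lost without any WT library or without KO2 replicate 1 or 2 (-0.72 to -0.53, adjusted p from 0.0516 to 0.127). Called differences of the GPI-anchored ephrin-A ligands were no larger than the 0.59 of Efna1 in KO2. Efna1 averaged 420 ± 22.3 normalized counts in KO1, 776 ± 92.6 in KO2 and 566 ± 46.4 in KO3, against 514 ± 30.1 in WT. It rose by 0.59 (adjusted p = 2.29e-04) in KO2, while its call in KO1 (-0.29, adjusted p = 0.0256) was lost without KO1 replicate 2 or 3 or WT replicate 2 or 3 (-0.29 to -0.25, adjusted p from 0.055 to 0.0846). Efna5 averaged 742 ± 45.6 in KO1, 1039 ± 49.9 in KO2 and 508 ± 36.2 in KO3, against 704 ± 94.3 in WT, and rose by 0.57 (adjusted p = 2.65e-04) in KO2 and fell by 0.46 (adjusted p = 0.00145) in KO3.

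Efna3 and Efna4 were called in no clone with all libraries in. Their calls depended on WT replicates 1 and 2. Without WT replicate 1, KO3 was called lower for Efna3 (-0.48, adjusted p = 0.0434) and for Efna4 (-0.55, adjusted p = 0.00385). Without WT replicate 2, Efna4 was called higher in KO1 (0.55, adjusted p = 0.0201) and in KO2 (0.49, adjusted p = 0.0304). Gm15998 shares 14.1% of the exon bases of Efna3 and 4731419I09Rik 10.5% of those of Efna4 on the opposite strand, and for strand in counting no setting is given in the sources used here.

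Among the Eph receptors, Epha4 was lower than WT in each clone, while the 3 tested EphB receptors were higher in KO1 and KO2. Of all genes tested, 26.9% were called higher in KO1 and 29.9% in KO2, and only 3 of the 5 EphB receptors passed the filter. Epha4 (ENSMUSG00000026235.14, minus strand of chromosome 1 at 77367185 to 77515088), a receptor that binds both ephrin classes, had 1214, 1244 and 1331 normalized counts in KO1, 1862, 1761 and 1943 in KO2, 584, 571 and 641 in KO3, and 4238, 3520 and 3459 in WT. The groups did not overlap, and KO3 was the lowest. Epha4 fell by 1.56 (SE 0.08, adjusted p = 1.22e-08) in KO1, by 1.01 (SE 0.08, adjusted p = 5.04e-07) in KO2 and by 2.64 (SE 0.08, adjusted p = 9.78e-11) in KO3. Epha2, a receptor of ephrin-A1 that is common in epithelia and tumours, had 1498, 1558 and 1468 normalized counts in KO1, 697, 866 and 922 in KO2, 2466, 2557 and 2457 in KO3, and 1896, 1961 and 2089 in WT. KO1 and KO2 lay below WT and KO3 above it. It fell by 0.39 (SE 0.09, adjusted p = 0.00239) in KO1 and by 1.27 (SE 0.09, adjusted p = 1.16e-07) in KO2 and rose by 0.33 (SE 0.09, adjusted p = 0.00654) in KO3. The rise in KO3 was lost with the median of neighbouring genes, 0.29, subtracted (0.04, adjusted p = 0.746).

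Of the weakly expressed EphA receptors, Epha5 and Epha7 passed the filter, and both were higher in KO1. Epha5 had 22.5, 26.4 and 22.6 normalized counts in KO1, 0, 4.79 and 0 in KO2, 1.04, 0.877 and 0 in KO3, and 0 in every WT library. It passed the filter through KO1 alone, at a level 23.2-fold above the floor of 3 WT reads. Epha7 had 28.9, 46.4 and 49.2 normalized counts in KO1, 23.3, 21.1 and 31.6 in KO2, 15.5, 7.02 and 10.7 in KO3, and 14.1, 2.07 and 1.81 in WT. KO1 and KO2 were above WT, and KO3 overlapped with it through WT replicate 1. Epha7 rose by 3.03 (adjusted p = 6.14e-04) in KO1 and by 2.36 (adjusted p = 0.00281) in KO2, and its difference in KO3 was 1.19 (adjusted p = 0.0898). Without WT replicate 1 it was called in KO3 too (1.98, adjusted p = 6.9e-04).

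Ephb3 and Ephb4, receptors of ephrin-B ligands, were higher in the clones. Ephb3 had 2471, 2241 and 2412 normalized counts in KO1, 1843, 1823 and 1729 in KO2, 2111, 1898 and 2159 in KO3, and 1023, 1176 and 1162 in WT. All clone libraries were above all WT libraries. Ephb3 rose by 1.08 (SE 0.07, adjusted p = 9.1e-08) in KO1, by 0.68 (SE 0.07, adjusted p = 4.13e-06) in KO2 and by 0.88 (SE 0.07, adjusted p = 5.15e-07) in KO3. Ephb4 had 2951, 2816 and 3038 normalized counts in KO1, 3933, 3822 and 3571 in KO2, 2472, 2250 and 2649 in KO3, and 2047, 2161 and 2271 in WT. KO1 and KO2 were apart from WT, and the lowest KO3 library was below the highest WT library. Ephb4 rose by 0.44 (SE 0.07, adjusted p = 1.48e-04) in KO1 and by 0.81 (SE 0.07, adjusted p = 6.34e-07) in KO2. Its call in KO3 (0.18, adjusted p = 0.0359) was lost without WT replicate 1 or 2 or KO3 replicate 1 or 3 (0.13 to 0.18, adjusted p from 0.0706 to 0.148) and was at -0.029 with the neighbours' median subtracted (adjusted p = 0.721). Ephb2 rose by 0.54 in KO1 and by 0.43 in KO2, and its difference in KO3 was 0.12 (adjusted p = 0.191). Per kilobase, the EphA receptors made up 30.3 ± 1.11% of the Eph receptor level in KO1, 25.6 ± 2.25% in KO2 and 39.6 ± 1.96% in KO3, against 55.3 ± 2.22% in WT (SD, n = 3 each).

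The netrin receptors of the Unc5 family, which mediate repulsion and act as dependence receptors, moved in opposite directions. Unc5b (ENSMUSG00000020099.8, minus strand of chromosome 10 at 60762593 to 60831581) had 1824, 1861 and 1760 normalized counts in KO1, 1246, 1336 and 1320 in KO2, 2145, 1944 and 2031 in KO3, and 3664, 3501 and 3588 in WT. The groups did not overlap, and KO2 was the lowest. Unc5b fell by 0.98 (SE 0.05, adjusted p = 1.53e-08) in KO1, by 1.46 (SE 0.05, adjusted p = 3.92e-10) in KO2 and by 0.81 (SE 0.05, adjusted p = 6.47e-08) in KO3. Unc5d (ENSMUSG00000063626.6, minus strand of chromosome 8 at 28646717 to 29219636) had 437, 409 and 391 normalized counts in KO1, 118, 104 and 136 in KO2, 79.8, 86.9 and 104 in KO3, and 11.8, 6.21 and 3.61 in WT. All clone libraries were above all WT libraries, and KO1 was above the other clones. Unc5d rose by 5.78 (SE 0.29, adjusted p = 7.71e-09) in KO1, by 3.997 (SE 0.29, adjusted p = 1.69e-07) in KO2 and by 3.59 (SE 0.29, adjusted p = 4.68e-07) in KO3. Per kilobase, Unc5d made up 13.4 ± 0.54% of the Unc5 level in KO1, 5.88 ± 0.77% in KO2 and 2.93 ± 0.45% in KO3, against 0.14 ± 0.08% in WT (SD, n = 3 each).

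Netrins themselves stayed at low levels. Ntn3, the netrin with the highest mean normalized count over all 12 libraries, had 15.0, 40.1 and 15.7 normalized counts in KO1, 7.46, 11.5 and 21.1 in KO2, 10.4, 5.26 and 5.33 in KO3, and 8.23, 4.14 and 19.0 in WT. Each clone overlapped with WT, and no difference was called with all libraries in, although KO1 was called without WT replicate 3 (1.69, adjusted p = 0.023). Ntn1, the canonical netrin, averaged 5.11 ± 2.46 normalized counts in KO1, 7.78 ± 3.12 in KO2 and 4.38 ± 1.52 in KO3, against 10.6 ± 0.73 in WT. Its call in KO3 (-1.16, adjusted p = 0.0305) was lost without any WT library or KO3 replicate 2 (-1.20 to -0.89, adjusted p from 0.0552 to 0.113). In KO1, Ntn1 was at -1.003 (adjusted p = 0.0571) and was called without KO1 replicate 3 (-1.31, adjusted p = 0.0275) or KO2 replicate 3 (-1.003, adjusted p = 0.0454). Ntn5 had 22.5, 33.8 and 17.7 normalized counts in KO1, 5.60, 5.75 and 7.03 in KO2, 0, 3.51 and 3.20 in KO3, and 0 in every WT library. That puts its level 23.9-fold above the floor of 3 WT reads in KO1 and 5.99-fold in KO2. Its call in KO3 (1.41, adjusted p = 0.0428) was lost on leaving out any library of the other groups or KO3 replicate 2 or 3 (adjusted p from 0.0509 to 0.16), and without KO3 replicate 1 it was at 2.12. Sec1, on the opposite strand, shares 23.4% of the exon bases of Ntn5 and averaged 33.7 normalized counts in KO1, 34.3 in KO2 and 27.3 in KO3, against 6.00 in WT. Reads of the overlap could not be told apart without strand. Of the other netrin receptors, Dcc was at a mean of 0.932 or less in every group, while Neo1, which encodes neogenin, averaged 4771 ± 73.2 in KO1, 3922 ± 147 in KO2 and 5024 ± 364 in KO3, against 5315 ± 847 in WT, and fell by 0.43 (adjusted p = 0.00147) in KO2.

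The 23 genes that did not pass the filter reached at most 25.9 normalized counts in a single library and at most 68 reads over all 12. Ephb1, Ephb6 and Unc5a had 0 reads in every library. Sema3c and Sema3d, class 3 semaphorins, had 27 and 28 reads in KO1 and 0 in WT, which puts KO1 9.08-fold and 9.41-fold above a floor of 3 WT reads. Epha8 had 21 reads in KO3, 6 in KO2 and 0 in KO1 and WT, which puts KO3 6.72-fold above that floor. Epha10 had 5 reads in KO1, 4 in KO2, 0 in KO3 and 55 in WT, so WT was 19.1-fold above a floor of 3 reads in KO3. Sema4d had 16 reads in KO1, 9 in KO2, 29 in KO3 and 1 in WT, and its ratio to WT in KO3 was 27.9 (95% exact counting interval 4.62 to 1138). The folds above a floor take the reads of the higher group as exact, so its counting error is left out. The intervals cover counting error only, and neither carries a test between groups.

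Per kilobase of exon, the most abundant guidance genes over all libraries were Plxnb2, Nrp1, Plxna1, Slit3, Ephb4 and Sema3f. Sema3f ranked 2 in WT with 1259 ± 40.3 normalized counts per kilobase, but 12 in KO1 with 282 ± 1.41, 7 in KO2 with 446 ± 28.4 and 9 in KO3 with 325 ± 32.2. Nrp2 ranked 18 in KO1, 24 in KO2 and 7 in KO3, against 6 in WT. Epha2 ranked 9 in KO1, 19 in KO2 and 5 in KO3, against 11 in WT. Summed over a family, semaphorin level was 1514 ± 41.4 in KO1, 1394 ± 62.3 in KO2 and 1124 ± 49.8 in KO3, against 2025 ± 111 in WT (normalized counts per kilobase, SD, n = 3 each). EphA level was 486 ± 9.46 in KO1, 413 ± 29.6 in KO2 and 611 ± 8.27 in KO3, against 892 ± 40.0 in WT, and EphB level was 1116 ± 37.9 in KO1, 1201 ± 55.4 in KO2 and 933 ± 64.7 in KO3, against 721 ± 36.4 in WT. Neuropilin level was 1456 ± 38.3 in KO1, 1528 ± 60.2 in KO2 and 1538 ± 91.8 in KO3, against 1585 ± 155 in WT.

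Compared with each other, the clones differed in many guidance genes. KO2 minus KO1 gave 10 higher and 15 lower among the 45 tested, against 20.5% and 23.9% of all genes (44.4% in either direction). KO3 minus KO1 gave 7 higher and 30 lower, against 20.3% and 23.4% of all genes (43.6% in either direction), with a median of -0.54 beside -0.01 over all genes. Epha5, Slit2 and Ntn5, which passed the filter through KO1 libraries alone, had to be lower in KO2 and KO3 than in KO1. They are among the 15 and the 30 lower genes and enter the median. KO3 minus KO2 gave 6 higher and 20 lower, against 26.1% and 27% of all genes (53.1% in either direction), with a median of -0.43 beside -0.01. Of the 8 tested plexins, 7 were lower and 0 higher in KO3 than in KO1. Genes with calls of opposite sign against WT in different clones were Efna1, Efna5, Epha2, Plxnb2, Plxnd1, Sema3g and Sema6c, which is 15.6% of the 45, beside 8.38% of all genes tested. For genes chosen so, a called difference between the opposite clones is nearly certain. Epha2 was higher in KO3 than in KO2 by 1.60 (SE 0.09, adjusted p = 2.29e-08), and Plxnb2 was lower in KO3 than in KO2 by 0.87 (-0.87, SE 0.05, adjusted p = 3.57e-08). Sema6c averaged 287 ± 18.7 normalized counts in KO1, 396 ± 33.8 in KO2 and 166 ± 7.51 in KO3, against 267 ± 88.0 in WT. KO2 was above and KO3 below every WT library, at differences of 0.62 (adjusted p = 0.0114) and -0.63 (adjusted p = 0.0118). WT spread most here, and without WT replicate 3 the difference in KO2 was 0.39 (adjusted p = 0.0412), while without WT replicate 1 that in KO3 was -0.38 (adjusted p = 0.0279) and KO1 was called at 0.40 (adjusted p = 0.0244). Both calls were lost in fits of KO2 and WT (adjusted p = 0.0712) or KO3 and WT alone (adjusted p = 0.0653).

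**Figure D4:**
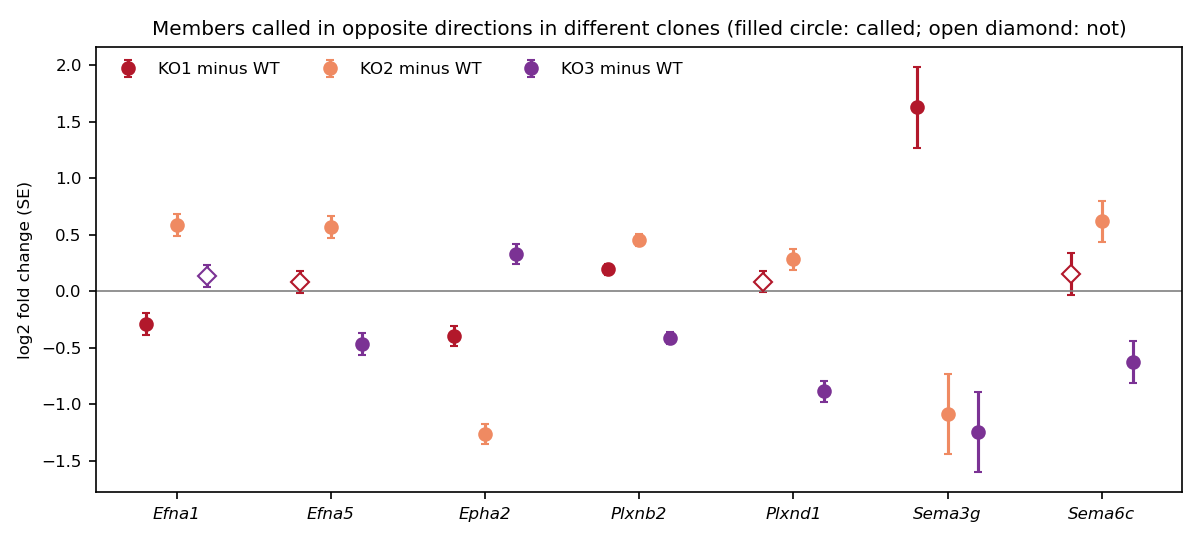
Differences from WT, as differences of log2(normalized count + 1) with SE, of the 7 guidance genes that were called higher in some clone and lower in another (filled circles, called; open diamonds, not called). Epha2 is below 0 in KO1 and KO2 and above 0 in KO3, and Sema3g is above 0 in KO1 and below 0 in KO2 and KO3.

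Other genes of these pathways were counted from lists of known guidance proteins and effectors. Over all genes tested, 52.3% were called in KO1, 60.4% in KO2 and 54.1% in KO3, and the share of each list is given for comparison with these. Of 43 further guidance ligands and receptors, 21 were tested, with 11 higher and 6 lower in KO1, 9 higher and 8 lower in KO2, and 8 higher and 7 lower in KO3, a called share of 81.0% in KO1 and KO2 and 71.4% in KO3. Their median difference was 0.49 in KO1, 0.24 in KO2 and -0.03 in KO3. Rgma, a repulsive ligand of neogenin, averaged 934 ± 25.9 normalized counts in KO1, 1725 ± 92.2 in KO2 and 1038 ± 54.4 in KO3, against 473 ± 14.9 in WT, and rose by 0.98 in KO1, by 1.86 in KO2 and by 1.13 in KO3. Gpc1, a glypican that binds Slits, rose by 1.20 in KO1, 0.77 in KO2 and 1.05 in KO3. Ncam1, a neural cell adhesion molecule, fell by 0.79 in KO1, by 0.33 in KO2 and by 1.33 in KO3. Vegfa, a ligand of neuropilins as well as of VEGF receptors, rose by 0.68 in KO1 and by 1.40 in KO3 and fell by 0.26 in KO2.

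Of 24 semaphorin and plexin effectors, 21 were tested, with 8 higher and 5 lower in KO1, 9 higher and 6 lower in KO2, and 7 higher and 7 lower in KO3. Called shares were 61.9% in KO1, 71.4% in KO2 and 66.7% in KO3, against 52.3%, 60.4% and 54.1% of all genes. Dpysl3, a collapsin response mediator, averaged 1298 ± 41.0 normalized counts in KO1, 27.2 ± 7.03 in KO2 and 2570 ± 94.6 in KO3, against 13.8 ± 1.86 in WT, and rose by 6.46 in KO1, by 0.90 in KO2 and by 7.44 in KO3 on the log2 scale. Rnd1, a small GTP-binding protein that binds plexins, fell by 0.31 in KO1 and by 0.85 in KO2 and rose by 0.93 in KO3. Fes, a kinase, rose by 2.54 in KO1, by 3.19 in KO2 and by 2.25 in KO3, and Farp1, a FERM domain protein that binds plexins, fell by 0.30 in KO1, by 0.41 in KO2 and by 0.46 in KO3. Of 17 Slit and Robo effectors, 16 were tested, with 4 higher and 3 lower in KO1, 7 higher and 5 lower in KO2, and 5 higher and 7 lower in KO3. Their called share was below that of all genes in KO1 (43.75%) and above it in KO2 and KO3 (75% in each). Srgap1, a GTPase-activating protein that binds Robo, rose by 1.14 in KO1, 1.51 in KO2 and 0.79 in KO3, whereas its relative Srgap3 fell by 0.82 in KO1 and by 0.42 in KO3 and was at -0.04 in KO2 (adjusted p = 0.548).

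Of 22 ephrin and Eph effectors, 20 were tested, with 9 higher and 4 lower in KO1, 8 higher and 3 lower in KO2, and 6 higher and 5 lower in KO3. With 65% called in KO1 and 55% in KO2 and KO3, against 52.3%, 60.4% and 54.1% of all genes, KO2 and KO3 were near or below the background. Ngef, the exchange factor ephexin that Epha4 uses, averaged 380 ± 58.4 normalized counts in KO1, 395 ± 16.4 in KO2 and 172 ± 14.2 in KO3, against 38.7 ± 4.32 in WT, and rose by 3.26 in KO1, by 3.32 in KO2 and by 2.13 in KO3. Fyn, a Src family kinase, rose by 0.65 in KO1, 0.57 in KO2 and 0.77 in KO3. Chn2, which encodes the Rac-specific GTPase-activating protein beta-chimaerin, averaged 85.7 ± 6.07 in KO1, 1.23 ± 1.43 in KO2 and 27.0 ± 4.61 in KO3, and was at 0 in every WT library. Of 19 effectors of netrins and their receptors, 15 were tested, with 8 higher and 1 lower in KO1, 7 higher and 4 lower in KO2, and 9 higher and 4 lower in KO3, a called share of 60% in KO1, 73.3% in KO2 and 86.7% in KO3. Ablim3, an actin-binding LIM protein, averaged 219 ± 16.0 in KO1, 14.9 ± 4.40 in KO2 and 637 ± 35.1 in KO3, against 0.947 ± 0.906 in WT.

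The authors' deposited tables of DESeq2 results gave calls of the same sign for most of the guidance genes that limma called. Among the 45 tested genes, 22 in the authors' deposited table for KO1 were called higher and 9 lower, in that for KO2 22 and 9, and in that for KO3 11 and 14. Of these 45, called with the same sign by limma and in the authors' deposited tables were 31 in KO1, 30 in KO2 and 25 in KO3, and 0 had opposite signs. Robo3 in KO1, Efnb3 in KO2 and Ntn1 in KO3 were called by limma alone, and of the 45 Sema6a in KO2 by the authors' deposited table alone. Of the 23 genes that did not pass the filter and so had no limma test, the authors' deposited tables called Robo2, Sema3c and Sema4d higher in KO1, Epha8, Sema4d and Slit1 higher in KO3, and Epha10 lower in all clones. Sema3d, with 7, 3 and 18 reads in the KO1 libraries, was not called in the authors' DESeq2 results for KO1 (adjusted p = 0.307).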

How the data were processed

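Per the labels' protocols, libraries of total RNA from NIH-3T3 cells were made with random hexamers after removal of cytoplasmic rRNA. Cutadapt, Salmon 0.14.1, DESeq2 1.24.0 and the build GRCm38 (mm10) are named in the submitters' processing notes; their settings and whether counting used strand are not stated there. The authors deposited normalized counts per gene, used here as a signal. Within 0.02, 99.99% of these values are whole numbers divided by 1 size factor per library, which gave back 32929242 to 42211807 reads per library, possibly rounded Salmon estimates. Per the file headers, the authors also deposited log2 fold changes with standard errors, p-values and adjusted p-values of each clone against WT. Of 54392 gene identifiers, all but 35 matched GENCODE M21, and there were 0 unused columns.

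The 15073 genes with at least 10 normalized counts in at least 3 of 12 libraries were fitted by limma 3.58.1 (R 4.3.3), on log2(value + 1) with a trended prior variance and all 4 groups in the fit, which left 8 residual degrees of freedom. P-values are two-sided and were adjusted by Benjamini and Hochberg's method over all genes tested, with calls at under 0.05. Differences on this scale understate the change of low genes. The alternatives were edgeR 4.0.16 and DESeq2 1.42.0 on the recovered reads, pseudocounts of 0.5 and 5, no filter and a filter at 50, TMM factors, quantile normalization, fits of the compared groups only, a replicate block, subtraction of the median of the nearest 20 genes on each side, and leaving out each library. The fitting script was tested on simulated data. The genes and lists were chosen with earlier results of these data known. Values in every library are given for up to 4 genes of each family, the 3 with the largest called difference from WT at a mean of at least 50 normalized counts in some group and the 1 with the highest mean; Sema3f, Plxnc1, Epha5, Epha7 and Ntn5 were added after their values were seen. From each other list, up to 4 genes with the smallest adjusted p are named, and Neo1 and Dcc were named in addition as netrin receptors. The result of 1 further list is not reported here. A fold against a group with 0 reads is set against a floor of 3 reads over that group. Such a bound takes the reads of the higher group as exact and leaves out their counting error. Ratios with 1 to 3 reads have 95% exact counting intervals, which cover counting error only.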

Additional observations from a re-analysis of the deposited data

Results flagged for a closer look

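For 7 guidance genes (15.6% of the 45 tested, beside 8.38% of all genes tested), limma called opposite differences from WT in different clones. For genes chosen so, the difference between those clones is nearly certain to be called, and it was in each case below. The compared libraries of the clones did not overlap in level, which the same choice favours, so neither adds support. Efna1 was 0.88 higher on the log2 scale in KO2 than in KO1 (adjusted p = 1.79e-05). Efna5 differed by -1.03 in KO3 minus KO2 (adjusted p = 2.38e-06). Epha2 was higher in KO3 than in KO1 by 0.73 (adjusted p = 3.27e-05) and than in KO2 by 1.60 (adjusted p = 2.29e-08). Plxnb2 differed by -0.61 in KO3 minus KO1 (adjusted p = 1.33e-06) and by -0.87 in KO3 minus KO2 (adjusted p = 3.57e-08). Plxnd1 differed by -1.17 in KO3 minus KO2 (adjusted p = 5.29e-07). Sema3g differed by -2.72 in KO2 minus KO1 (adjusted p = 6.16e-05) and by -2.88 in KO3 minus KO1 (adjusted p = 3.92e-05). Sema6c differed by -1.25 in KO3 minus KO2 (adjusted p = 1.04e-04). The calls against WT of Efna1 in KO1, Epha2 in KO3, Plxnb2 in KO1, Plxnd1 in KO2, Sema3g in KO2 and Sema6c in KO2 and KO3 were each lost under at least 1 alternative.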

How the results depend on the processing

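Of 89 called differences of guidance genes between a clone and WT, 68 were called in the same direction under each of the 23 alternatives that gave a value, and each of the others was lost or turned sign under at least 1, with 2 that turned sign. With the median of neighbouring genes subtracted, Ephb4 in KO3 was at -0.029 and Plxna2 in KO3 at -0.13, both uncalled. Of 46 uncalled differences, 20 were called under at least 1 alternative. With a filter at 50 normalized counts, 15 guidance genes were higher in KO1 in place of 23, because fewer genes were tested; the other counts stayed within 1.5 times. Leaving out 1 library at a time gave 22 to 24 higher and 8 to 10 lower in KO1, 19 to 22 and 8 to 10 in KO2, and 9 to 12 and 13 to 15 in KO3. It gave 23 to 29 called between KO2 and KO1, 29 to 39 between KO3 and KO1 and 23 to 28 between KO3 and KO2, and 6866 to 7987, 8230 to 9200 and 7367 to 8369 over all genes in KO1, KO2 and KO3 against WT. The replicate numbers do not pair the libraries: deviations of same-numbered libraries correlated at -0.22 to 0.12 over 18 pairs, 2 of them above 0.1, and 3 of 12 libraries correlated best with their own number. A replicate block gave 22 higher and 9 lower in KO1, 21 and 10 in KO2, and 11 and 13 in KO3, and calls lost under it were those of Robo3 in KO1 (adjusted p = 0.0521), Ntn1 in KO3 (0.0501) and Sema4g in KO3 (0.0664). Clone and genotype cannot be told apart, each line being 1 clone, and the 23 genes under the filter have reads, bounds and counting intervals here but no limma test.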
